A study of Mus musculus with 6 samples.

Results

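The genes described here are the cadherins, catenins and Epcam that are read in studies of the cadherin switch. They are Cdh1, Cdh2, Cdh3, Cdh6, Cdh11, Cdh13, Ctnna1, Ctnnb1, Ctnnd1 and Epcam, 10 of the 18512 entries in the table of gene counts. They were chosen by name, with earlier results of these data known, and all 10 were found. A mean of at least 20 normalized counts was needed for testing. It was reached by 9 of these genes and by 13355 genes in all, and Cdh3 fell below it.

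Cadherins are calcium-dependent adhesion proteins that join neighbouring cells at adherens junctions. The cytoplasmic tail of a classical cadherin binds β-catenin and p120-catenin, and β-catenin binds α-catenin, which connects the junction to actin. β-catenin that is free of the junction can enter the nucleus and act with TCF/LEF factors in Wnt signalling. In an epithelial-mesenchymal transition (EMT), epithelia such as those of the mammary gland often lose E-cadherin and gain N-cadherin, which is called the cadherin switch, and TGF-β is a well-known inducer of EMT.

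NMuMG cells, an epithelial line derived from mouse mammary gland, received the vehicle DMSO, 5 ng/ml TGF-β, or the same dose of TGF-β together with 50 uM 2APB. Each of these 3 groups has 2 replicates, sequenced from poly(A) RNA as 6 libraries. The paper describes 2APB as an inhibitor of store-operated calcium entry, and reports that it raised calcium entry through the channel ORAI3. The treatment lasted 24 h. The study's text does not settle whether 2APB was added before TGF-β or with it. No library had 2APB without TGF-β, so a difference between TGF-β+2APB and DMSO holds both agents. The study names 2 biological replicates for each treatment, without spelling out whether these were separate cultures set up independently. The p-values therefore measure the spread between these libraries, which may be partly technical. All 3 comparisons share libraries, and their values are therefore set side by side without a test of likeness.

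Library totals ran from 71840570 to 79473182 counts, and the 10 most abundant genes took 6.35% to 7.40% of them. Every value in the table was even, so the smallest step was 2 counts. Values below are counts scaled to the mean library by the TMM method of edgeR (normalized counts). Changes are log2 fold changes with their standard error (SE), tested by edgeR's quasi-likelihood F-test. The calling threshold was a Benjamini-Hochberg FDR of 0.05 or less.

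The epithelial label was checked first. Of 11 epithelial markers, 10 were in the table, and 7 to 9 of these exceeded 3 counts in each library. Over the groups these markers went in different directions. The keratins Krt8 and Krt18 were abundant and rose against DMSO in both treated groups, with Krt8 between 234557 and 729718 normalized counts. Krt19, another epithelial keratin, had 45138 and 42162 in the DMSO libraries, 12517 and 8781 under TGF-β, and 1688 and 3443 under TGF-β+2APB, and it fell against DMSO (log2 -2.04 and -4.09, edgeR FDR 0.00659 and 0.000492). The tight junction gene Ocln fell as well (log2 -0.66 and -0.89), while Cldn4, a claudin, rose from 2 and 6 counts in DMSO to between 716 and 2108 in the treated libraries. In contrast, the epithelial splicing factor Esrp1, the transcription factor Grhl2 and the tight junction gene Cldn7 had at most 6 counts in any library, and the epithelial surface antigen Epcam was low, as given below. The 6 hepatocyte markers Alb, Apoa1, Fga, Fgb, Ttr and Serpina1a summed to 94032 and 85141 normalized counts in the DMSO libraries. The same sum was 1279 and 683 under TGF-β, then 147 and 180 under TGF-β+2APB. The 6 fibroblast markers in the table summed to 142 and 163 normalized counts in DMSO and to between 2341 and 3106 in the treated libraries, although Dcn, Thy1 and Col1a2 had at most 6 counts anywhere. The sum of 6 endothelial markers stayed between 9.83 and 53.3. What part these differences have in the results below was not tested.

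Replicate 2 of TGF-β+2APB stood apart in immune markers, with a sum of 2578 normalized counts for the 7 genes against 190 to 722 in the other 5 libraries. Ptprc was at 742 and Itgam at 1005 in it, against 35.7 and 11.9 in replicate 1 of the same group. The members' values without that library are given once the set has been described, and those of related genes beside their lists. In bulk RNA, fewer cells that express a gene and less RNA per cell cannot be told apart.

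The sequences shown here are promoters from a table of RefSeq entries (GRCm38.p6) in which 4 of the 10 genes were matched, Ctnnd1, Ctnnb1, Cdh6 and Epcam. Promoters of the other members were not analysed here. The 250 bases before the start were searched on both strands for CACCTG, whose reverse complement is CAGGTG, an E-box form that SNAI and ZEB repressors are known to bind. The motif was in 17.2% of 32851 such windows, and 2.06% held it at least 2 times. Epcam had 2 matches, starting 187 and 19 bases before the start, and the windows of the other 3 genes had none. The windows of Epcam (chr17:87635729-87635978, plus strand) and Cdh6 (chr15:13173676-13173925, minus strand) are printed because these genes were called in opposite directions for TGF-β+2APB against DMSO. For TGF-β against DMSO Cdh6 was not called (edgeR FDR 0.0948). Of the other genes without the motif, Ctnnb1 fell in both treated groups (log2 -0.81 and -1.02) and Ctnnd1 rose with TGF-β (log2 0.28). A link between the motif and the changes was not tested. Capitals mark the motif.
Epcam: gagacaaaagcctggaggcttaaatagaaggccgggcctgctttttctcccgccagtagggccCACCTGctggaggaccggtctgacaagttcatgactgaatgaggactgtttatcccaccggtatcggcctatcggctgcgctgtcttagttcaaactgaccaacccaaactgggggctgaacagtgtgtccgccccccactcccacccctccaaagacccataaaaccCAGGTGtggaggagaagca
Cdh6: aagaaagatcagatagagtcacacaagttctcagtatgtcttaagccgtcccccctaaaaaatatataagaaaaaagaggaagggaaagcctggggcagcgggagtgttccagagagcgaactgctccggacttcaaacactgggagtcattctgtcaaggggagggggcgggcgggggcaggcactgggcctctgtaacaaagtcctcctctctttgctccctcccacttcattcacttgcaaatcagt
A match is a description of the letters, and no binding was measured. The windows held 56.4% and 51.2% G and C.

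The 2 cadherins of the switch moved in opposite directions. E-cadherin, encoded by Cdh1 (chr8:106603351-106670246, plus strand, GRCm38), is the main cadherin of epithelial junctions. Cdh1 had 91231 and 90652 normalized counts in the DMSO libraries, 58644 and 47268 under TGF-β, and 35078 and 41083 under TGF-β+2APB. The 3 groups did not overlap, with every treated library below every DMSO library. Cdh1 fell 1.72-fold under TGF-β (log2 -0.78, SE 0.13, edgeR FDR 0.00550) and 2.39-fold under TGF-β+2APB (log2 -1.26, SE 0.13, edgeR FDR 0.000682), both against DMSO. Against TGF-β alone, the log2 difference with 2APB was -0.48 (SE 0.13, 95% interval -0.79 to -0.16, edgeR FDR 0.0570) and did not pass the threshold. Over 14 alternative settings this FDR ran from 0.00819 to 0.264, and 3 of them passed it, among them the fit without TGF-β replicate 2 (0.00819). Without the library rich in immune markers the difference was -0.60 (edgeR FDR 0.104).

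N-cadherin, encoded by Cdh2 (chr18:16588877-16809246, minus strand), is typical of mesenchymal and neural cells. Cdh2 was at 12512 and 12502 in the DMSO libraries, 20619 and 24733 under TGF-β, and 36298 and 33696 under TGF-β+2APB. The libraries rose from group to group without overlap. Cdh2 rose 1.81-fold under TGF-β (log2 0.86, SE 0.10, edgeR FDR 0.00187) and 2.80-fold under TGF-β+2APB (log2 1.48, SE 0.11, edgeR FDR 0.000185). Its rise with 2APB over TGF-β alone was 1.54-fold (log2 0.63, SE 0.10, 95% interval 0.37 to 0.88, edgeR FDR 0.0157). With only the 4 libraries compared, edgeR called 0 of the 9 tested genes between the treated groups, so this rise was not called there. The call was kept in 10 of 14 alternatives. Without the library rich in immune markers it was 0.68 (edgeR FDR 0.0415), while leaving out replicate 1 of TGF-β+2APB (0.0870) or a DMSO replicate (0.0584 and 0.0590) ended the call.

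Both changes together are seen in the ratio of Cdh2 to Cdh1, each per kb of merged exons. The ratio was 0.0778 and 0.0782 in the DMSO libraries, 0.199 and 0.297 under TGF-β, and 0.587 and 0.465 under TGF-β+2APB. On the log2 scale the group means were -3.68 ± 0.0057, -2.04 ± 0.41 and -0.94 ± 0.24 (SD, n = 2). N-cadherin RNA thus moved towards the level of E-cadherin RNA and stayed below it in all 6 libraries on this scale. Which gene was higher in TGF-β+2APB depended on the length used. With coding length the ratio was 1.01 in replicate 1 and 0.800 in replicate 2 of that group, and with the longest transcript it was 0.947 and 0.750. The order of the groups is the same for any length, since a length shifts every library alike.

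**Figure D1:**
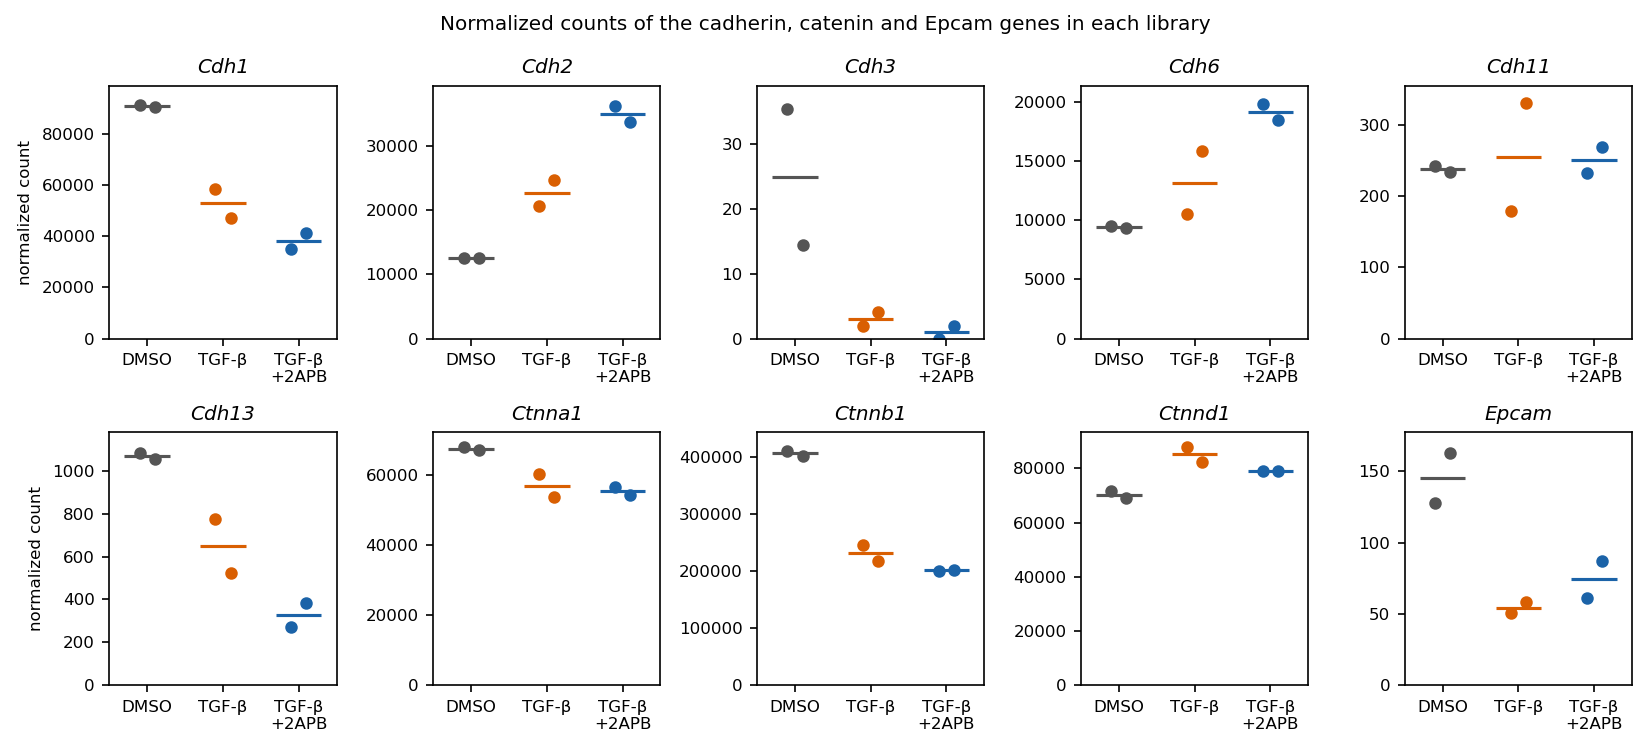
Normalized counts (vertical axes, each from 0) of the 10 genes in the 6 libraries. Points are libraries and bars are means of 2. Cdh1 steps down and Cdh2 steps up over the 3 groups, Ctnnb1 lies between 401613 and 410454 in DMSO and at 199905 and 201763 with TGF-β+2APB, and the Cdh11 groups overlap.

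The set also holds P-cadherin, K-cadherin, OB-cadherin and T-cadherin. P-cadherin, encoded by Cdh3 (chr8:106510891-106557297, plus strand), is known from basal and myoepithelial cells. Cdh3 had 36 and 14 counts in the DMSO libraries, 2 and 4 under TGF-β, and 0 and 2 under TGF-β+2APB. The counts of all treated libraries were below both DMSO libraries, but too low for the filter. Counted in steps of 2, the DMSO libraries held 25 units of Cdh3 and the TGF-β+2APB libraries 1, a ratio of 25.5 with an exact 95% interval of 4.17 to 1046, which covers counting error only. A fit without the filter gave Cdh3 an edgeR FDR of 0.0251 for TGF-β+2APB and 0.0739 for TGF-β against DMSO.

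K-cadherin, encoded by Cdh6 (chr15:13028701-13173675, minus strand), is a classical cadherin of kidney and brain. Cdh6 had 9544 and 9383 normalized counts in the DMSO libraries, 10503 and 15882 under TGF-β, and 19831 and 18480 under TGF-β+2APB. The TGF-β replicates lay far apart, and both exceeded DMSO. Cdh6 rose 2.02-fold under TGF-β+2APB against DMSO (log2 1.02, SE 0.19, edgeR FDR 0.00653), a call that all 14 alternatives kept, and was 1.09 higher on the log2 scale without the library rich in immune markers. For TGF-β against DMSO the log2 difference was 0.48 (SE 0.19, 95% interval 0.0081 to 0.95, edgeR FDR 0.0948). Leaving out TGF-β replicate 1 gave 0.75 (edgeR FDR 0.000984) and leaving out TGF-β replicate 2 gave 0.15 (edgeR FDR 0.0920), within a range of 0.000984 to 0.284 over the 14 alternatives. Between TGF-β+2APB and TGF-β it was 0.54 (95% interval 0.067 to 1.01, edgeR FDR 0.112), and 3 of 14 alternatives passed the threshold, with FDR values from 0.00217 to 0.343.

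OB-cadherin, encoded by Cdh11 (chr8:102632095-102785642, minus strand), is common in mesenchymal and bone-forming cells. Cdh11 was at 242 and 234 in the DMSO libraries, 179 and 330 under TGF-β, and 232 and 268 under TGF-β+2APB. The groups overlapped in every comparison, and the TGF-β replicates spanned both other groups. The 95% interval of its log2 difference was -0.66 to 0.86 for TGF-β and -0.69 to 0.83 for TGF-β+2APB against DMSO, and -0.79 to 0.73 between the treated groups. Changes of Cdh11 within these bounds, in either direction, were not resolved.

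T-cadherin, encoded by Cdh13 (chr8:118283733-119324921, plus strand), lacks a cytoplasmic tail, is held in the membrane by a lipid anchor and does not bind β-catenin. Cdh13 had 1084 and 1056 normalized counts in the DMSO libraries, 778 and 523 under TGF-β, and 269 and 385 under TGF-β+2APB. The groups did not overlap and stood in the same order as for Cdh1. Cdh13 fell 3.27-fold under TGF-β+2APB against DMSO (log2 -1.71, SE 0.25, edgeR FDR 0.00252). The log2 difference for TGF-β against DMSO was -0.72 (SE 0.24, edgeR FDR 0.0620), with 2 of 14 alternatives past the threshold. Cdh13 fell 1.99-fold with 2APB over TGF-β alone (log2 -0.99, SE 0.25, edgeR FDR 0.0470). Only 6 of 14 alternatives kept this last call, with FDR values from 0.00293 to 0.181, and without the library rich in immune markers the edgeR FDR was 0.0533. Leaving out any library except TGF-β replicate 2 ended it.

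**Figure D2:**
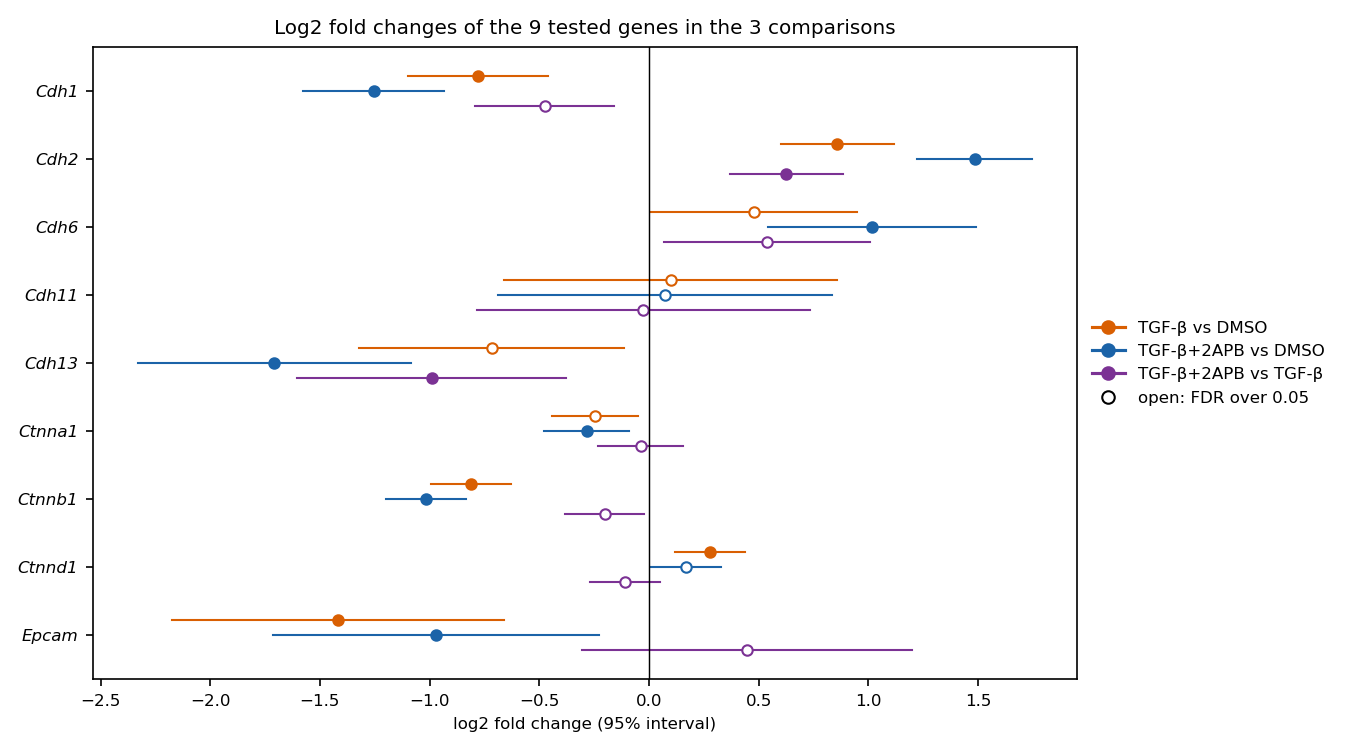
Log2 fold changes (horizontal axis) of the 9 tested genes with 95% intervals for the 3 comparisons, from edgeR. Filled points have an FDR of 0.05 or less. Cdh2 is filled to the right in all 3 comparisons, Cdh1 and Ctnnb1 are filled to the left against DMSO only, and Cdh11 has no filled point.

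Of α-catenin, β-catenin and p120-catenin, β-catenin had the largest fold change against DMSO in both treated groups. Ctnnb1 (chr9:120929216-120960507, plus strand) had 410454 and 401613 normalized counts in the DMSO libraries, 244374 and 217900 under TGF-β, and 199905 and 201763 under TGF-β+2APB. The treated libraries were all far below DMSO, and the treated groups lay close to each other. Ctnnb1 fell 1.76-fold under TGF-β (log2 -0.81, SE 0.073, edgeR FDR 0.000700) and 2.02-fold under TGF-β+2APB (log2 -1.02, SE 0.074, edgeR FDR 0.000197). Both calls were kept in all 14 alternatives. Between the treated groups the log2 difference was -0.20 (SE 0.073, 95% interval -0.38 to -0.022, edgeR FDR 0.117), with 3 of 14 alternatives past the threshold and FDR values from 0.00362 to 0.433. The fits without TGF-β replicate 1 (0.0431) or 2 (0.00362) were among them. Exons of Ulk4 on the opposite strand overlap those of Ctnnb1 over 759 bp, and the strand setting of the counting is not given in the sources used here. Ulk4 had 118 to 280 counts per library.

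α-catenin, encoded by Ctnna1 (chr18:35118859-35254779, plus strand), had 67988 and 67134 normalized counts in the DMSO libraries, 60262 and 53653 under TGF-β, and 56649 and 54321 under TGF-β+2APB. The treated groups overlapped each other and lay below DMSO. Ctnna1 fell 1.22-fold under TGF-β+2APB against DMSO (log2 -0.28, SE 0.078, edgeR FDR 0.0259). That call was kept in 10 of 14 alternatives, with FDR values up to 0.229, the value without the library rich in immune markers. It ended without either library of DMSO or of TGF-β+2APB (0.123 to 0.229). For TGF-β it was -0.25 (SE 0.078, edgeR FDR 0.0509), with 5 of 14 alternatives past the threshold, and between the treated groups -0.038 (95% interval -0.23 to 0.16).

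p120-catenin, encoded by Ctnnd1 (chr2:84600071-84650765, minus strand), holds classical cadherins at the cell surface. Ctnnd1 had 71510 and 69228 normalized counts in the DMSO libraries, 87922 and 82547 under TGF-β, and 78890 and 79193 under TGF-β+2APB. The groups did not overlap, and TGF-β+2APB lay between the other groups. Ctnnd1 rose 1.21-fold under TGF-β (log2 0.28, SE 0.064, edgeR FDR 0.0187), a call kept in 9 of 14 alternatives with FDR values up to 0.158. Leaving out a DMSO or a TGF-β+2APB library ended it (0.0660 to 0.158). Its difference was 0.17 (SE 0.064, edgeR FDR 0.0741) for TGF-β+2APB against DMSO, with 4 of 14 alternatives past the threshold, and -0.11 (95% interval -0.27 to 0.051, edgeR FDR 0.294) between the treated groups. The annotation places another gene, Gm28635, over 4482 bp of its exons on the same strand, and how shared reads were counted is not given in the sources used here. In these fits α-catenin and p120-catenin stayed within 1.22-fold of DMSO, while β-catenin, the partner bound between cadherin and α-catenin, was lower by 1.76-fold or more.

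Epcam (chr17:87635979-87651129, plus strand) encodes an epithelial adhesion and signalling protein outside the cadherin family. It had 128 and 163 normalized counts in the DMSO libraries, 50.7 and 58.1 under TGF-β, and 61.4 and 86.9 under TGF-β+2APB. Both treated groups were below DMSO, and the level was low throughout, at a rank between 10136 and 11166 of 17517 entries per kb of exon. Epcam fell 2.67-fold under TGF-β (log2 -1.42, SE 0.30, edgeR FDR 0.0141) and 1.96-fold under TGF-β+2APB (log2 -0.97, SE 0.30, edgeR FDR 0.0380). These calls were kept in 12 and 11 of 14 alternatives, with FDR values up to 0.100 and 0.208. Leaving out either DMSO library ended both calls, and leaving out TGF-β+2APB replicate 1 ended the second. The log2 difference between the treated groups was 0.45 (95% interval -0.31 to 1.20, edgeR FDR 0.358).

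Counted together, 5 of the 9 tested genes were called with TGF-β against DMSO, 2 higher (Cdh2 and Ctnnd1) and 3 lower (Cdh1, Ctnnb1 and Epcam). Of all 13355 genes 41.5% were called in this comparison, 21.8% higher and 19.7% lower. For TGF-β+2APB against DMSO 7 of 9 were called, 2 higher (Cdh2 and Cdh6) and 5 lower (Cdh1, Cdh13, Ctnna1, Ctnnb1 and Epcam), beside 52.7% of all genes, 25.6% higher and 27.2% lower. Between TGF-β+2APB and TGF-β 2 of 9 were called, Cdh2 higher and Cdh13 lower, beside 17.5% of all genes, 6.58% higher and 10.9% lower. With 9 genes, nothing about the set as a whole is read from these shares. Their median log2 changes were -0.25, -0.28 and -0.038 in the order of the comparisons above, where the medians over all genes were -0.010, -0.0032 and -0.0036. Median sizes regardless of direction were 0.72, 1.02 and 0.45 for the 9 genes and 0.35, 0.44 and 0.23 for all genes. These medians are descriptions without a test, since the genes were chosen with earlier results of these data known.

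All values in this paragraph are from the fit without the library rich in immune markers, TGF-β+2APB replicate 2, which leaves a lone library in that group. Fewer members were called in each comparison. For TGF-β+2APB against DMSO, Cdh1 was at -1.35 (edgeR FDR 0.00295), Cdh2 at 1.56 (edgeR FDR 0.000691) and Cdh6 at 1.09 (edgeR FDR 0.0147) on the log2 scale. Cdh13 was at -1.97 (edgeR FDR 0.00444), Ctnnb1 at -1.001 (edgeR FDR 0.00360) and Epcam at -1.22 (edgeR FDR 0.0315). The remaining tested members were not called, with Ctnna1 at -0.23 (edgeR FDR 0.229), Ctnnd1 at 0.19 (edgeR FDR 0.275) and Cdh11 at -0.015 (edgeR FDR 0.979). Between the treated groups Cdh2 alone was called, at 0.68 (edgeR FDR 0.0415). In that comparison Cdh1 was at -0.60, Cdh6 at 0.59, Cdh13 at -1.28 and Ctnnb1 at -0.21 (edgeR FDR 0.104, 0.199, 0.0533 and 0.421), and Epcam was at 0.17 and Ctnnd1 at -0.11 (edgeR FDR 0.794 and 0.639).

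Levels between genes were compared per kb of merged exons. In DMSO the order was Ctnnb1, Cdh1, Ctnna1, Ctnnd1, Cdh2, Cdh6, Cdh13, Epcam, Cdh11 and Cdh3. Ctnnb1 was at rank 12 of 17517 entries in both DMSO libraries and at rank 37 to 49 in the treated libraries. Cdh1 moved from ranks 118 and 120 to ranks 280 and 358 with TGF-β+2APB, and Cdh2 moved from ranks 2454 and 2482 to ranks 711 and 778. Ctnna1 and Ctnnd1 stayed between ranks 207 and 303 in all libraries. In DMSO, Cdh1 stood at 19946 and 19819 per kb, above Ctnna1 at 10582 and 10449. With TGF-β+2APB, Cdh1 was at 7669 and 8982, on both sides of Ctnna1 at 8817 and 8455. The order of these neighbours depended on the length used. Per kb of longest transcript Cdh1 was at 7918 and 9274 in that group, below Ctnna1 at 15175 and 14552, and per kb of coding length at 13227 and 15491, below 20842 and 19986. In DMSO Cdh1 was the higher one with all 3 lengths, but only slightly with the longest transcript, at 20594 and 20463 against 18213 and 17984.

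The sum over the 5 classical cadherins of the set (Cdh1, Cdh2, Cdh3, Cdh6 and Cdh11) was set beside β-catenin on the same per kb scale. It was 22590 and 22438 in the DMSO libraries, 16562 and 15198 under TGF-β, and 14393 and 15238 under TGF-β+2APB. Against DMSO, the rise of Cdh2 and Cdh6 thus made up only part of the fall of Cdh1 in this sum. Between the treated groups the result depended on the length used. Per kb of coding length, Cdh1 was at 22113 and 17824 under TGF-β and at 13227 and 15491 under TGF-β+2APB. Cdh2 was at 7586 and 9100, then 13355 and 12397, and Cdh6 at 4432 and 6701, then 8368 and 7797. With that length the sum was higher under TGF-β+2APB than under TGF-β. Ctnnb1 per unit of the sum per kb of merged exons was 3.50 and 3.45 in the DMSO libraries, 2.84 and 2.76 under TGF-β, and 2.68 and 2.55 under TGF-β+2APB.

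The whole cadherin make-up was computed over the 17 Cdh genes in the table, as shares of their summed level per kb. Cdh1 held 70.1% and 69.9% in the DMSO libraries, 54.9% and 48.8% under TGF-β, and 45.7% and 50.2% under TGF-β+2APB. Cdh2 held 5.45% and 5.47% in the DMSO libraries, 10.9% and 14.5% under TGF-β, and 26.8% and 23.3% under TGF-β+2APB. Cdh6 went from 3.72% and 3.67% through 4.98% and 8.31% to 13.1% and 11.4%. The rest was largely Cdh17, an intestinal and liver cadherin with a short tail, at 20.05% and 20.2% in the DMSO libraries, 28.3% and 27.5% under TGF-β, and 13.2% and 14.0% under TGF-β+2APB. Cdh1 was therefore the leading cadherin in every library on this scale, Cdh17 was next in DMSO and TGF-β, and Cdh2 was next with TGF-β+2APB. These shares carry no test.

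**Figure D3:**
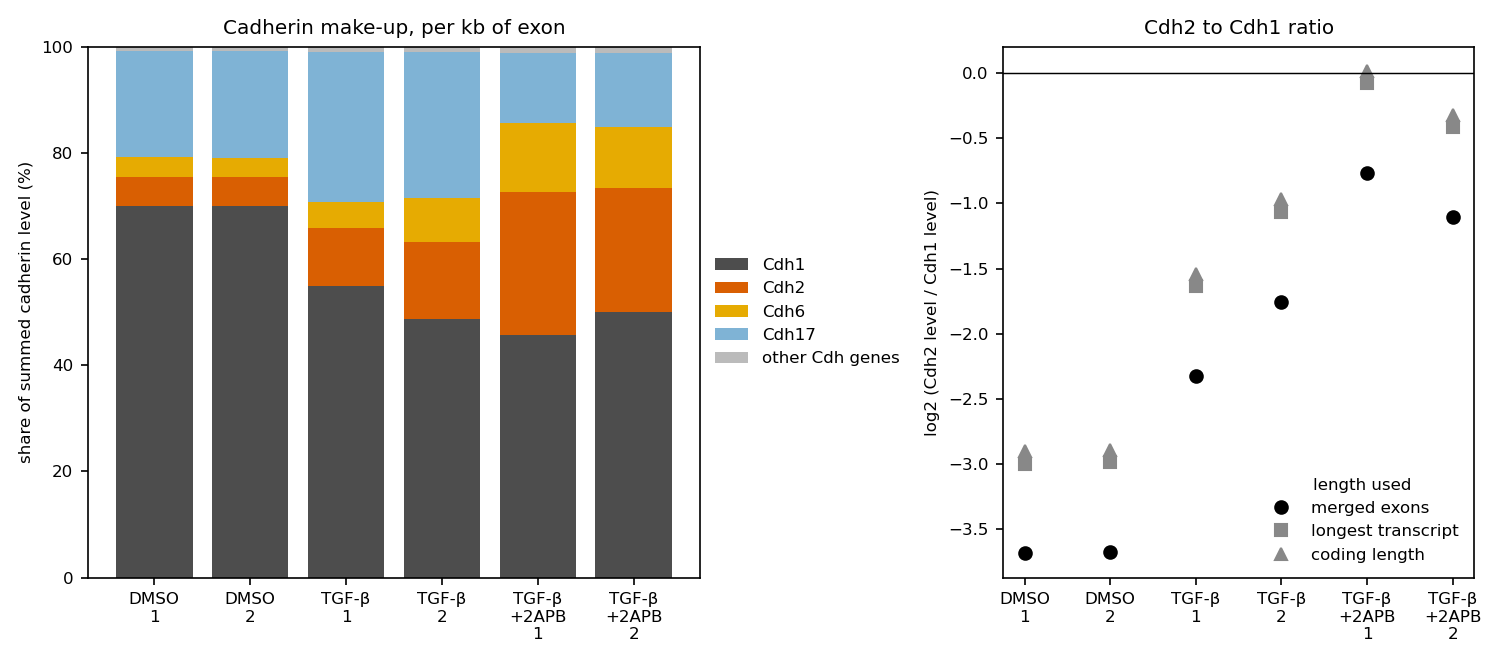
Left, percent of the summed cadherin level per kb of merged exons in each library, stacked by gene. Right, log2 ratio of Cdh2 to Cdh1 with 3 definitions of gene length. The Cdh2 share is 5.45% and 5.47% in DMSO and 26.8% and 23.3% with TGF-β+2APB, and the ratio is close to 0 in that group only with the longest transcript or coding length.

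Genes around the set were read from 6 lists of 100 symbols, of which 90 were in the table and 72 were tested. With TGF-β against DMSO 41 were called, 23 higher and 18 lower. For TGF-β+2APB against DMSO 48 were called, 24 in each direction, and between the treated groups 20 were called, 5 higher and 15 lower. Each of these totals was lower without the library rich in immune markers, a fit that leaves a lone library in TGF-β+2APB. The counts from all 6 libraries are to be read beside the background shares above. Counts of all genes moved too when a library was left out, as given below. Such moves are therefore not read as traits of a list. The comparisons again share libraries.

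Among the other cadherins 4 genes were tested. With TGF-β 2 were called higher and 1 lower, TGF-β+2APB had 2 calls in each direction against DMSO, and between the treated groups 1 was called lower. M-cadherin, encoded by Cdh15 and known from muscle, had 0 and 2 counts in the DMSO libraries, 130 and 82 under TGF-β, and 100 and 84 under TGF-β+2APB. In steps of 2 counts its level under TGF-β was 106 times that in DMSO (exact 95% counting interval 18.6 to 4215), and under TGF-β+2APB 90.3 times (15.8 to 3603). edgeR called both rises (FDR 0.00170 and 0.00125). Cdh15 reached the mean count needed for testing only through the treated libraries, so these calls are not read as separate support. Cdh24, a classical cadherin that binds catenins, rose by 1.33 and 1.81 on the log2 scale against DMSO (SE 0.23 in each, edgeR FDR 0.00644 and 0.00150). Cdh16, the cadherin of kidney epithelium, fell against DMSO (log2 -3.04 and -4.28, edgeR FDR 0.00612 and 0.00164), from 161 and 151 normalized counts in DMSO to between 5.94 and 27.3 in the treated libraries. Cdh16 reached the filter only through the DMSO libraries, so its calls are not read as separate support either. Cdh17 was at 25534 and 25670 in the DMSO libraries, 29613 and 26035 under TGF-β, and 9915 and 11193 under TGF-β+2APB. It fell with 2APB over TGF-β alone by 1.40 on the log2 scale (SE 0.098, edgeR FDR 0.00307), while its difference between TGF-β and DMSO was 0.12 (edgeR FDR 0.366). Without the library rich in immune markers, the log2 differences of TGF-β+2APB from DMSO were 1.78 for Cdh24 and -1.35 for Cdh17. They were 6.47 for Cdh15 and -4.66 for Cdh16, with the limit of the filter given above. Cdh17 was at -1.49 against TGF-β alone in that fit. Leaving out TGF-β replicate 2 gave 2 calls in place of 1 between the treated groups.

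Of 5 other catenin genes tested, 4 were called with TGF-β, 1 higher and 3 lower. With TGF-β+2APB 2 were called in each direction against DMSO, and against TGF-β 1 was called in each direction. Plakoglobin, encoded by Jup, is a close relative of β-catenin that also serves desmosomes. Jup had 24750 and 23522 normalized counts in the DMSO libraries, 24901 and 20458 under TGF-β, and 35478 and 31471 under TGF-β+2APB. It rose 1.48-fold with 2APB over TGF-β alone (log2 0.56, SE 0.12, edgeR FDR 0.0286) and 1.39-fold over DMSO (edgeR FDR 0.0182), so it went the other way from Ctnnb1 there. Pkp4, a p120 relative, fell in all 3 comparisons (log2 -0.43, -0.83 and -0.40, edgeR FDR 0.00672, 0.000435 and 0.0215). Arvcf, another p120 relative, fell by 0.65 with TGF-β (edgeR FDR 0.0124) and differed by -0.19 with TGF-β+2APB (edgeR FDR 0.266). Ctnnal1, an α-catenin relative, fell against DMSO (log2 -0.31 and -0.54, edgeR FDR 0.0322 and 0.00364). Ctnnbip1, which blocks the binding of β-catenin to TCF factors, rose by 0.38 and 0.45 (edgeR FDR 0.0198 and 0.00856). These counts moved with single libraries, as did those of all genes. For TGF-β edgeR called 0 in place of 4 without DMSO replicate 1 or 2, with 3 and 2 genes at an unadjusted p under 0.05, and 2 without either TGF-β+2APB library. The 4 calls for TGF-β+2APB over DMSO became 2 without either DMSO library or TGF-β+2APB replicate 1. Without the library rich in immune markers Ctnnbip1 (edgeR FDR 0.0617) was no longer called there, and neither were Jup (edgeR FDR 0.0720) and Pkp4 (edgeR FDR 0.105) between the treated groups. In that comparison edgeR also called 0 of these genes without either DMSO library or TGF-β+2APB replicate 1, with 2 to 3 at an unadjusted p under 0.05.

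All 20 junction linker and nectin genes were tested. With TGF-β 9 were called higher and 6 lower, with TGF-β+2APB 9 higher and 8 lower against DMSO, and against TGF-β 2 higher and 3 lower. Nectin-1, a junction adhesion protein listed as Pvrl1, had 358 and 380 normalized counts in the DMSO libraries, 1772 and 1447 under TGF-β, and 3552 and 3299 under TGF-β+2APB. It rose in all 3 comparisons, by 2.12, 3.21 and 1.09 on the log2 scale (edgeR FDR 0.000166, 3.84e-05 and 0.00572), with a step order like that of Cdh2. Nectin-4, listed as Pvrl4, rose from 6 and 0 counts in DMSO to 76 and 70 with TGF-β+2APB (edgeR FDR 0.00832) and had 22 counts in each TGF-β library (edgeR FDR 0.0546). Like Cdh15, Pvrl4 reached the filter only through the treated libraries. The actin cross-linker Actn1 rose by 1.40 with TGF-β and by 1.43 with TGF-β+2APB (edgeR FDR 0.000130 and 7.09e-05). Shroom3, which drives apical constriction, fell in both treated groups (log2 -2.08 and -1.85, edgeR FDR 5.86e-05 and 4.41e-05). The junction scaffold Magi1 fell in all 3 comparisons (log2 -1.15, -1.80 and -0.64, edgeR FDR 0.000180, 3.57e-05 and 0.00556). Camsap3, which anchors microtubules at junctions, fell by 0.93 with TGF-β and rose by 0.40 with 2APB over TGF-β alone (edgeR FDR 0.000521 and 0.0229). Ptprk, a phosphatase of junctions, fell by 0.45 with 2APB over TGF-β alone (edgeR FDR 0.0122). Camsap3 (edgeR FDR 0.134) and Ptprk (edgeR FDR 0.0739) were not called between the treated groups once the library rich in immune markers was left out. The 5 calls there became 2 without any 1 library of DMSO or TGF-β+2APB and 12 without TGF-β replicate 2, and the 17 for TGF-β+2APB against DMSO became 11 without DMSO replicate 1.

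**Figure D4:**
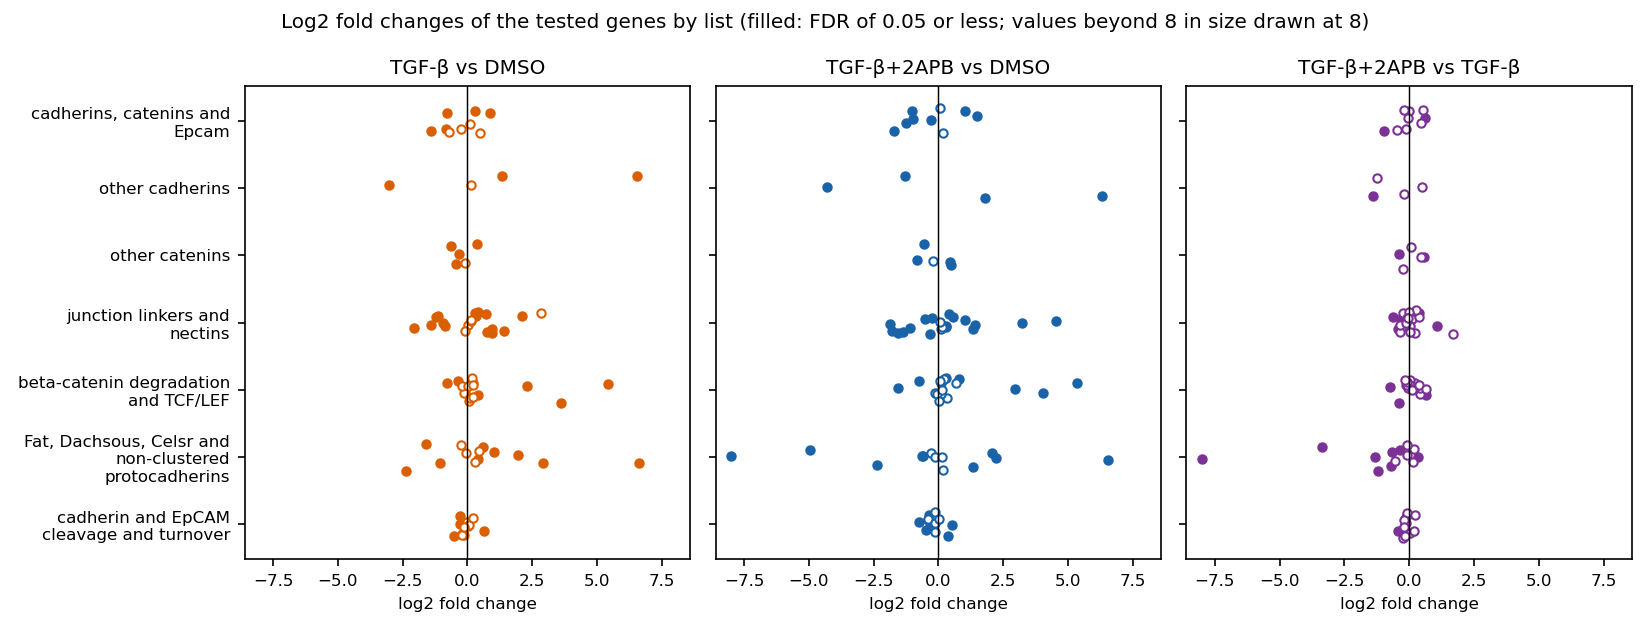
Log2 fold changes (horizontal axes, values beyond 8 in size drawn at 8) of the tested cadherins, catenins and Epcam and of the 6 related lists, for the 3 comparisons. Filled points have an edgeR FDR of 0.05 or less. The panel of TGF-β+2APB against TGF-β has 15 filled points to the left and 5 to the right among the related lists.

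Of 18 genes for β-catenin degradation and TCF/LEF action, all tested, 4 were called higher and 2 lower with TGF-β. The counts were 5 and 2 with TGF-β+2APB against DMSO, and 1 and 2 against TGF-β. Axin2, a scaffold of the degradation complex and a well-known Wnt target, had 66.9 and 57.9 normalized counts in the DMSO libraries, 807 and 733 under TGF-β, and 1091 and 983 under TGF-β+2APB. It rose 12.3-fold and 16.6-fold against DMSO (log2 3.62 and 4.05, edgeR FDR 6.39e-05 and 2.77e-05), in the same libraries in which Ctnnb1 RNA fell. The TCF/LEF family did not move as one. Tcf7 rose by 2.30 with TGF-β, by 2.97 with TGF-β+2APB and by 0.66 between the treated groups (edgeR FDR 0.000381, 0.000108 and 0.0444). Lef1 had 4 and 0 counts in DMSO and 86 to 98 in the treated libraries (edgeR FDR 0.00391 and 0.00283), so the size of its rise is poorly fixed. It passed the filter only through the treated libraries. Tcf7l2 fell in all 3 comparisons (log2 -0.81, -1.56 and -0.75, edgeR FDR 0.000952, 7.26e-05 and 0.00556). Bcl9l, a coactivator of β-catenin, likewise fell (log2 -0.35, -0.75 and -0.40, edgeR FDR 0.0177, 0.000754 and 0.0240). Without TGF-β replicate 2 the 6 calls for TGF-β against DMSO became 13, 9 higher and 4 lower, and the 3 between the treated groups became 5. The latter became 1 without either DMSO library or TGF-β+2APB replicate 1. Bcl9l was not called with TGF-β or between the treated groups (edgeR FDR 0.0766 and 0.142) when the library rich in immune markers was left out.

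The list of Fat, Dachsous, Celsr and non-clustered protocadherin genes holds relatives of the classical cadherins, with the calsyntenin genes among them. Of 24 symbols 21 were in the table and 13 were tested. With TGF-β 6 were called higher and 3 lower, with TGF-β+2APB 4 higher and 5 lower against DMSO, and against TGF-β 1 higher and 7 lower. Pcdh18 had 4 and 2 counts in DMSO and 284 to 312 in the treated libraries (edgeR FDR 9.84e-05 and 5.87e-05). As for Lef1, the size of the rise is poorly fixed, and the filter was passed only through the treated libraries. Pcdh7 rose from 712 and 761 normalized counts in DMSO to 5126 and 6017 with TGF-β, and was at 3512 and 3289 with TGF-β+2APB. It therefore rose 7.57-fold with TGF-β (edgeR FDR 5.25e-05) and fell 1.64-fold with 2APB over TGF-β alone (edgeR FDR 0.0104), unlike Cdh2, which rose in both. Pcdh10 had 295 and 246 normalized counts in the DMSO libraries, 56.5 and 47.8 with TGF-β, and 0 in both TGF-β+2APB libraries. Against a floor of 3 counts per library, for counting error only, it was at least 91.2-fold lower there than in DMSO and at least 17.6-fold lower than with TGF-β. Pcdh11x fell with TGF-β and again with 2APB over TGF-β alone (log2 -1.59 and -3.35, edgeR FDR 0.0323 and 0.0156). Only 4 and 2 counts of Pcdh11x were left under TGF-β+2APB, so the size of the second fall is poorly fixed. Like Cdh16, Pcdh11x reached the filter only through the DMSO libraries, and its calls are not read as separate support. Pcdh1 rose by 1.02, by 1.34 and by 0.32 in the 3 comparisons (edgeR FDR 0.000473, 0.000118 and 0.0483). Without the library rich in immune markers Pcdh1 (edgeR FDR 0.205) and Pcdh11x (edgeR FDR 0.0635) were no longer called between the treated groups. The 8 calls there became 4 without it and 3 without either DMSO library or TGF-β+2APB replicate 1, and the 9 for TGF-β became 4 and 5 without DMSO replicate 1 and 2.

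Of 12 tested genes for cleavage and turnover of cadherins and EpCAM, 1 was called higher and 3 lower with TGF-β, 2 higher and 5 lower for TGF-β+2APB over DMSO, and 1 lower against TGF-β. Adam10, a protease that sheds the outer part of E-cadherin and N-cadherin, fell with TGF-β and with TGF-β+2APB (log2 -0.50 and -0.47, edgeR FDR 0.0139 and 0.0141). Adam15, another membrane protease, rose by 0.63 and 0.51 (edgeR FDR 0.00385 and 0.00564). Rab11a, which serves the recycling of E-cadherin to the surface, fell in all 3 comparisons (log2 -0.30, -0.74 and -0.44, edgeR FDR 0.0191, 0.000516 and 0.0147). Cbll1, also called Hakai, an E3 ligase for E-cadherin, rose by 0.37 with TGF-β+2APB (edgeR FDR 0.00769) and differed by 0.20 with TGF-β (edgeR FDR 0.0756). Single libraries moved these counts widely, and those of all genes too. For TGF-β the 4 calls became 1 without either DMSO library, 2 without either TGF-β+2APB library and 7 without TGF-β replicate 2. The 7 for TGF-β+2APB over DMSO became 3 and 2 without DMSO replicate 1 and 2, and 4 and 2 without TGF-β+2APB replicate 1 and 2. Without the last, the library rich in immune markers, Adam10 (edgeR FDR 0.0938) and Cbll1 (edgeR FDR 0.0551) were not called for TGF-β+2APB, and Rab11a was not called between the treated groups (edgeR FDR 0.113) or with TGF-β (edgeR FDR 0.0907). Between the treated groups edgeR called 0 without any 1 library of DMSO or TGF-β+2APB, with 1 at an unadjusted p under 0.05 each time, and 4 and 6 without TGF-β replicate 1 and 2. RNA was measured throughout, and protein at the junction was not.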

How the data were processed

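RNA of NMuMG cells was sequenced in 6 libraries, 2 for each of DMSO, TGF-β and TGF-β+2APB. The authors aligned single-end reads with TopHat2 2.0.13 after FastQC 0.11.2, counted them on genes with featureCounts and deposited raw counts. The submitters' processing notes also name DESeq2 1.6.1. These notes name the mouse build mm10, whereas the paper's methods name a human build, and the symbols are mouse symbols. The annotation, strand setting and treatment of multiple alignments are not given in the sources used here. A spreadsheet had turned 25 names into dates, and these entries were kept in the fits.

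Counts were fitted with edgeR 4.0.16 in R 4.3.3 (TMM scaling, a mean of at least 20 normalized counts, quasi-likelihood F-test, 3 groups in 1 model without covariates, Benjamini-Hochberg FDR over all genes tested), with the mean count and FDR thresholds of the study. Intervals are 95% intervals from the model's t distribution. With between 71840570 and 79473182 counts per library, the spread between replicates and not depth limits most values: the biological coefficient of variation was 17.3%. The SD over tested genes of the log2 difference between replicates was 0.334 in DMSO, 0.567 under TGF-β and 0.781 under TGF-β+2APB. The fit shares its estimate of the spread over the 3 groups, so DMSO libraries also set it for TGF-β+2APB against TGF-β. Gene positions and lengths came from GENCODE for GRCm38, promoters from RefSeq. Tables were built in Python 3.11.15 with pandas 2.3.3 and drawn with matplotlib 3.10.9. Simulated counts with known changes were used to test the fit.

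The members and the 6 related lists were chosen with earlier results of these data known. All 10 members are named, and from each related list up to 2 called genes with the largest rise and 2 with the largest fall per comparison. For Cdh1 and Cdh2 the 5 genes with the smallest root mean square difference of centred log2 values (pseudocount 1) are named. Results for 2 genes within these rules are not reported here. Alternatives were DESeq2 1.42.0, RLE or library size scaling, no filter, a minimum of 10 counts in each library, a block for the replicate number, only the 4 libraries compared, halved counts, an FDR of 0.01 and each library left out, where a lone library is assumed to vary like the others.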

Additional observations from a re-analysis of the deposited data

How the results depend on the processing

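Over the 14 alternatives at an FDR of 0.05, the falls of Cdh1 and Ctnnb1 and the rise of Cdh2 against DMSO were called each time. The counts of calls moved as follows, with edgeR unless another tool is named. For TGF-β against DMSO, leaving out 1 library gave 3 to 8 of the 9 genes, 23 to 53 related genes and 2753 to 7640 of all genes, lowest without a DMSO library. The 8 came without TGF-β replicate 1. DESeq2 gave 8 of the 9 genes, and an FDR of 0.01 gave 3, with 26 related genes and 3369 of all genes. For TGF-β+2APB against DMSO, leaving out 1 library gave 4354 to 9006 of all genes, again lowest without a DMSO library. For TGF-β+2APB against TGF-β, leaving out 1 library gave 0 to 6 of the 9 genes, 7 to 37 related genes and 834 to 5405 of all genes. The highest of these came without TGF-β replicate 2, and the lowest without a DMSO library or TGF-β+2APB replicate 1. In that comparison scaling by library size and DESeq2 each gave 4 of the 9 genes, and no filter gave 1. Only the 4 libraries compared gave 0, with 7 related genes and 860 of all genes, and an FDR of 0.01 gave 0, with 6 and 601. At an unadjusted p under 0.05, 5 of the 9 genes passed in the fit of all 6 libraries and 3 with only 4. The causes were not tested.

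Replicate differences correlated with r = 0.15, -0.46 and -0.26 between groups over 13355 genes. With 2 replicates a group, these values cannot decide whether replicate numbers paired the libraries. With the replicate block, TGF-β+2APB against TGF-β gave 1 of the 9 genes, 12 related genes and 1343 of all genes. A crossed block, in which the replicate numbers of TGF-β+2APB were exchanged after seeing the data, gave 6, 6 and 3 of the 9 genes and 5706, 7232 and 2465 of all genes in the 3 comparisons.

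Signs turned only for differences that were not called. Cdh11 ran from -0.41 to 0.48 for TGF-β, from -0.015 to 0.17 for TGF-β+2APB against DMSO and from -0.40 to 0.48 between the treated groups when 1 library was left out, and was 0.012 with the block. Ctnna1 ran from -0.12 to 0.050 between the treated groups. The log2 ratio of Cdh2 to Cdh1 in DMSO, TGF-β and TGF-β+2APB was -2.99, -1.35 and -0.25 with the longest transcript and -2.90, -1.26 and -0.15 with coding length. Scaling moved the median of all genes by less than 0.1, and halved counts kept every count within 1.5-fold.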

Other observations

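Genes with the pattern most like Cdh1 over the 6 libraries, by the root mean square difference of centred log2 values, were Dync2li1 (0.0202), Slc25a23 (0.0238), Nicn1 (0.0378), Flot1 (0.0438) and Epn3 (0.0563). Dync2li1, a dynein light intermediate chain of cilia, had 1949 and 1976 normalized counts in the DMSO libraries, 1236 and 999 under TGF-β, and 767 and 882 under TGF-β+2APB. As for Cdh1, replicate 1 was the higher of the TGF-β libraries and the lower of the TGF-β+2APB libraries. That shared order follows from the choice by likeness and is not a separate observation.

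Among the genes most like Cdh2 were Denr (0.0419), Slc38a2 (0.0695), Nbl1 (0.0810) and Spire1 (0.0839). Denr, a factor of translation re-initiation, had 4423 and 4198 normalized counts in the DMSO libraries, 6697 and 8503 under TGF-β, and 12179 and 11002 under TGF-β+2APB. The differences are descriptions over 6 libraries that share their group means, and they carry no test.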
